A study of Saccharomyces cerevisiae with 21 samples.

Results

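The ribosomal DNA (rDNA) of budding yeast and the 50 kb on either side of it were examined in maps of meiotic DNA double-strand break (DSB) ends. The stretch ran from position 401640 to 517844 of chromosome XII on the reference build R64, and was cut into 100 bp windows with the reads of both strands summed. The left flank (401640 to 451639) held 500 windows, the rDNA repeat units present in the reference (451640 to 467844) held 162, and the right flank (from the next base to 517844) held 500, so that 1162 of the 120759 nuclear windows belonged to the stretch. The rule was one of position alone and used no measured value. Of the 1162 windows, 978 passed the filter on low counts for the test across windows: 496 in the left flank, all 162 in the rDNA and 320 in the right flank. In the right flank, 136 windows had no read in any library.

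The maps were made by CC-seq, which recovers the protein-linked 5′ ends of DNA and gives their number at each base of each strand. Cells of the SK1 strain background were taken after 6 h in sporulation medium. The study set out to learn how the kinase Tel1 and the length of meiotic prophase shape where DSBs form. All strains were diploids homozygous for sae2Δ and for the markers his4X::LEU2, leu2::hisG, arg4-nsp, ura3, lys2 and ho::LYS2. There were 5 replicates of sae2Δ ndt80Δ tel1Δ (sae2Δ::KanMX6, ndt80Δ::LEU2, tel1Δ::HYG), 4 of sae2Δ tel1Δ (sae2Δ::KanMX4, tel1Δ::HphMX4), 4 of sae2Δ ndt80Δ (sae2Δ::KanMX6, ndt80Δ::LEU2) and 5 of sae2Δ (sae2Δ::KanMX6), and all 18 also carried nuc1::LEU2. The single control library came from sae2Δ::KanMX6 ndt80Δ::LEU2 cells with spo11(Y135F)::KanMX4, which makes a catalytically dead Spo11. Its listed genotype lacks nuc1::LEU2 (NUC1 encodes a mitochondrial nuclease), so that the loss of Spo11 activity and the presence of Nuc1 cannot be told apart in any comparison with it. Only sae2Δ ndt80Δ also shares its state of Ndt80 and Tel1. Against the control, sae2Δ differs in Ndt80 as well, sae2Δ ndt80Δ tel1Δ in Tel1 and sae2Δ tel1Δ in both, and these differences cannot be told apart from that in Spo11 either. Each genotype was represented by 1 strain, and the methods describe the libraries of a genotype as independent biological replicates.

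As background, the rDNA is a long tandem array of repeats in which RNA polymerase I transcribes the 35S precursor of the large rRNAs and RNA polymerase III transcribes the 5S rRNA, with non-transcribed spacers between them. The reference holds only a pair of units, so that reads from all copies of the array pile up on them. Spo11 makes the DSBs of meiosis, mostly in the promoters of genes, and the rDNA and its surroundings are known as a region where they are scarce. In sae2Δ cells Spo11 stays covalently bound to the ends it made, which is what CC-seq reads. Tel1, the yeast ATM kinase, restrains further DSBs close to one already made, and Ndt80 is the transcription factor that ends meiotic prophase.

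The 21 libraries held between 1562673 and 8705712 reads. NDT80 held at most 1 read in each ndt80Δ library with active Spo11 and 3 in the control, and TEL1 held 0 to 34 reads in tel1Δ libraries, at most 0.0871 times the background. The stretch of SAE2 that was checked was not empty (4.97 to 181 times background in the libraries with active Spo11 and 0.766 times in the control), so it gave no check of that deletion. Background was taken as the read density inside 47 open reading frames longer than 5.5 kb, where few DSBs form. Called hotspots are the short clusters where DSB ends concentrate. Their reads above the control map, scaled to each library's background, came to between 30.95% and 87.6% of nuclear reads outside the rDNA. From the file names, 5 replicates belonged to a time-course series: sae2Δ ndt80Δ tel1Δ replicates 3, 4 and 5 and sae2Δ ndt80Δ replicates 3 and 4.

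The rDNA held far more reads than its length would give, but the amount differed many-fold between replicates of 1 genotype. Per 1000000 nuclear reads outside the rDNA (RPM from here on), the 16205 bp of rDNA held 6365, 7658, 19867, 39431 and 281 reads in the 5 sae2Δ ndt80Δ tel1Δ replicates and 16918, 23795, 21066 and 26524 in the 4 sae2Δ tel1Δ replicates. It held 43853, 8748, 35895 and 3103 in the 4 sae2Δ ndt80Δ replicates, 23307, 8290.1, 23338, 16583 and 20359 in the 5 sae2Δ replicates, and 69354 in the spo11-Y135F control. The groups with active Spo11 overlapped throughout, and every one of the 18 replicates lay below the control. Means were 14720.5 ± 15534 in sae2Δ ndt80Δ tel1Δ and 22076 ± 4097 in sae2Δ tel1Δ, against 22900.0 ± 20001 in sae2Δ ndt80Δ and 18375 ± 6281 in sae2Δ (SD, n = 5, 4, 4 and 5). In the left flank the means were 1029.8 ± 998 and 1654 ± 270.2, against 1697 ± 1194 and 1209 ± 279.5 in the same order, and the control held 4657. In the right flank they were 1753 ± 1687 and 2626 ± 433, against 2829.6 ± 2052 and 2222 ± 626, and the control held 7565. None of the 4 comparisons in the 3 stretches passed the exact two-sided permutation test after Benjamini-Hochberg adjustment over all 12 (adjusted p between 0.561 and 0.635, with 0.00794 the smallest unadjusted p that 5 against 4 replicates allow).

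The reads of the stretch followed the background of each library. Background was 10.2, 9.88, 25.1, 45.8 and 2.07 RPM per kb in the sae2Δ ndt80Δ tel1Δ replicates and 21.2, 28.0, 32.2 and 33.5 in the sae2Δ tel1Δ replicates. It was 51.5, 12.2, 44.3 and 5.43 in the sae2Δ ndt80Δ replicates, 20.7, 9.81, 21.3, 16.8 and 16.8 in the sae2Δ replicates, and 73.1 in the control. Replicates with little background also had few rDNA reads, and the 2 with the least, sae2Δ ndt80Δ tel1Δ replicate 5 and sae2Δ ndt80Δ replicate 4, had the fewest. Over the 18 replicates, rDNA RPM was correlated with background (Pearson r = 0.97, Spearman rho = 0.95, both with a permutation p of 1e-05, the smallest that 100000 resamples can give). The same held for the flanks without the raised or repeated stretches beside the array (left, r = 0.99 and rho = 0.97, and right, r = 0.93 and rho = 0.91, each with a permutation p of 1e-05). Without the 2 replicates farthest from the median background, r was 0.94 for the rDNA, 0.98 for the left flank and 0.90 for the right. Among the 13 replicates outside the time-course series, r was 0.94 for the rDNA (permutation p = 3e-05), 0.98 for the left flank and 0.90 for the right (permutation p = 1e-05 each). Over these 6 relations the adjusted p lay between 1e-05 and 3e-05. Both sides of each relation were divided by the same nuclear reads, and the unique left flank itself stood near background. A positive r was thus partly built in, and the permutation p-values do not test a link beyond that. Since reads rose with background, levels below are also given as multiples of each library's own background per base pair.

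**Figure D1:**
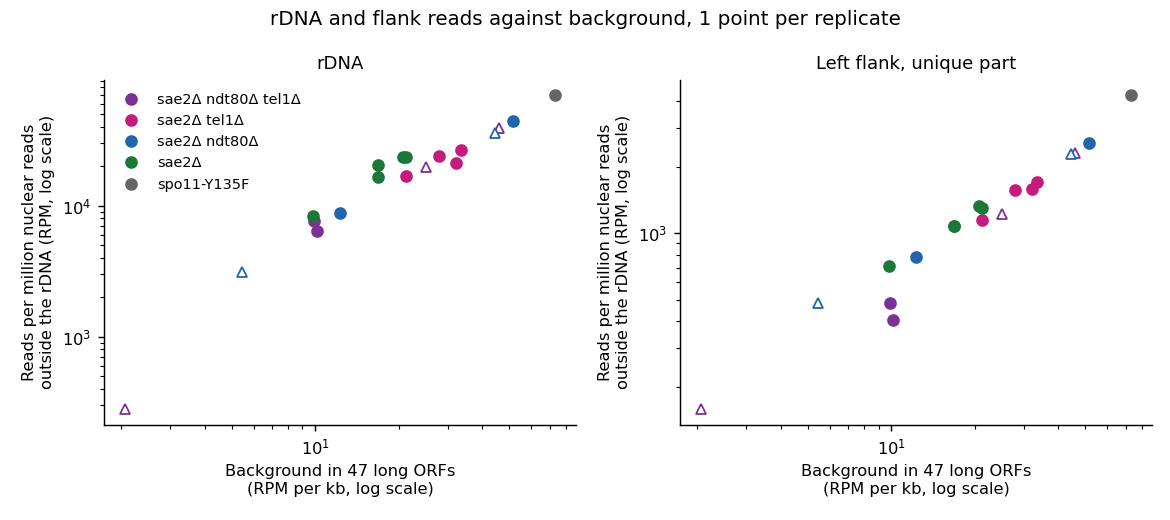
RPM in the rDNA and in the unique left flank against the background of each library (RPM per kb in long open reading frames), with all axes logarithmic and open triangles for the time-course series. The 18 replicates with active Spo11 lie along one rising trend in each panel (r = 0.97 and 0.99 on the linear scale), with the spo11-Y135F control at its upper end. Both axes are divided by the same nuclear reads, so part of the trend is built in.

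As multiples of background, the rDNA of 14 of the 18 replicates with active Spo11 lay below that of the control. It held 38.7, 47.8, 48.8, 53.1 and 8.39 times the background in sae2Δ ndt80Δ tel1Δ replicates and 49.2, 52.4, 40.4 and 48.9 times in sae2Δ tel1Δ replicates. It held 52.5, 44.1, 49.97 and 35.3 times in sae2Δ ndt80Δ replicates, 69.6, 52.1, 67.6, 60.9 and 74.8 times in sae2Δ replicates, and 58.6 times in the spo11-Y135F control (95% counting interval 58.1 to 59.1, covering counting error only). All 13 replicates that lacked Ndt80, Tel1 or both lay below the control, as did 1 of the 5 sae2Δ replicates, and the other 4 lay above it. Relative to the control the rDNA was at 0.672 ± 0.309 in sae2Δ ndt80Δ tel1Δ, 0.815 ± 0.0881 in sae2Δ tel1Δ, 0.776 ± 0.131 in sae2Δ ndt80Δ and 1.11 ± 0.149 in sae2Δ (SD, n = 5, 4, 4 and 5). The first of these was 0.804 without replicate 5, the library at 8.39 times background. In RPM, where the background is not divided out, the same ratios were 0.212, 0.318, 0.330 and 0.265. With 1 control library there is no test of these ratios. Between genotypes, sae2Δ ndt80Δ averaged 45.5 ± 7.65 times background and sae2Δ tel1Δ 47.7 ± 5.16, against 65.0 ± 8.75 in sae2Δ, and neither difference passed (exact permutation p = 0.0238 each, adjusted p = 0.0714). For sae2Δ ndt80Δ tel1Δ, at 39.4 ± 18.1, the adjusted p from the exact permutation test was 0.738 against sae2Δ tel1Δ and 0.931 against sae2Δ ndt80Δ. Reads from all copies of the array fall on the reference units, so the number of copies in each strain enters these levels. It was not measured here, and differences between genotypes or from the control cannot be told apart from a difference in copy number.

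Window by window, little of the rDNA exceeded the control. After scaling each map to its background, the genotype mean was over 1.5 times the control in 0 of 162 windows in sae2Δ ndt80Δ tel1Δ, 1 in sae2Δ tel1Δ, 0 in sae2Δ ndt80Δ and 6 in sae2Δ, and no window was over that ratio in every replicate of a genotype. The mean lay below the control in 160, 153, 156 and 28 windows in the same order, with median ratios of 0.665, 0.800, 0.764 and 1.10. These counts sum both strands. On the Crick strand alone, 1 window was over 1.5 times the control in every sae2Δ tel1Δ replicate, and on the Watson strand alone 1 was in every sae2Δ replicate. Along the array the profile of each replicate resembled the control's, with Pearson r across the 162 windows between 0.470 and 0.800 (median 0.619). Windows share their library and, through the repeat, their sequence, so that this is a description.

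Among the annotated parts of the repeat, the non-transcribed spacer NTS1 held a larger share of rDNA reads in every replicate than in the control. NTS1-1 lies between RDN5-1 (the 5S gene) and the next 35S unit (459797 to 460711), and is known in mitotic cells for the replication fork barrier bound by Fob1. It held 9.51% of rDNA reads in the median replicate (range 7.45% to 11.6%), against 7.34% in the control, and was above the control in 18 of 18 replicates. Its level was 63.0 ± 26.3 times background in sae2Δ ndt80Δ tel1Δ, 77.9 ± 5.87 in sae2Δ tel1Δ, 74.0 ± 4.40 in sae2Δ ndt80Δ and 108 ± 25.6 in sae2Δ, against 76.2 in the control. The genes of the largest rRNAs held a smaller share than in the control in most replicates. RDN25-1, the large-subunit rRNA gene, held 18.99% of rDNA reads in the median replicate, against 19.99% in the control (above it in 3 of 18 replicates), and RDN18-1, the small-subunit gene, held 10.25%, against 10.63% (3 of 18). RDN5-1 held 0.965%, against 0.929% (14 of 18), and RDN58-1 held 0.924%, against 0.886% (11 of 18). The transcribed spacers ITS1-1 and ITS2-1 held 2.07% and 1.37%, against 2.09% and 1.47%, and were above the control in 9 and 4 of 18 replicates. Of the external transcribed spacers, ETS2-1, at the left end of the first unit, held 0.721%, against 0.613%, and was above the control in 17 of 18 replicates, but ETS2-2, in the second unit, held 1.51%, against 1.86% (3 of 18). ETS1-1 held 4.26%, against 4.48% (5 of 18), and ETS1-2 held 4.31%, against 4.57% (3 of 18). NTS2-1, the spacer upstream of the 35S gene, held 8.90%, against 8.59% (11 of 18). The shares add up to the same total and so are not independent of each other.

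In the first reference unit, the windows with the highest ratio to the control lay in the non-transcribed spacers. Across the 18 replicates the mean ratio was 1.55 at 460540 to 460639 and 1.19 at 460640 to 460739, both in NTS1-1, and 1.33 at 458540 to 458639 in NTS2-1. In the first of these windows the ratio was 1.83, 1.79, 0.904, 0.974 and 0.189 in sae2Δ ndt80Δ tel1Δ, 1.68, 1.35, 1.24 and 1.61 in sae2Δ tel1Δ, 1.199, 1.78, 0.976 and 1.04 in sae2Δ ndt80Δ, and 1.08, 3.08, 2.35, 1.87 and 3.28 in sae2Δ. The 4 genotypes overlapped, 14 of 18 replicates were above the control and 9 were over 1.5 times it. The excess was on 1 strand: 75.7% of the reads in this window were on the Crick strand in the active libraries, against 59.6% in the control. In the second reference unit, which ends early, the highest ratios were 1.10 at 467740 to 467844 and 1.09 at 467640 to 467739 (NTS2-2) and 0.970 at 464540 to 464639 (RDN58-2). Together the windows in NTS2-2 cover the same part of the repeat as 458540 to 458639 in NTS2-1, so they are not a separate site.

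Within these windows a few single bases carried many Crick-strand ends, and they were picked out after their values were seen. Base 458605 held 415 Crick reads over the 18 replicates, in 16 of them, against 1 read in the control. Scaled to background, that is 43.4 times the control (95% counting interval 7.75 to 1718). Base 467742 held 421 Crick reads in 14 of 18 replicates, against 0 in the control. With the control set at 3 reads, the limit taken for a count of 0, that is 14.7-fold higher, and the 95% counting interval starts at 11.9. The counting intervals given here pool the reads of the 18 replicates and leave out the spread between them. Bases 458605 and 467742 lie 9137 bp apart, the period of the reference units. They are the same position of the repeat, onto which reads from all copies fall, and are not separate sites. The lowest, median and highest counts at 458605 were 0, 4 and 30 in sae2Δ ndt80Δ tel1Δ, 9, 43 and 150 in sae2Δ tel1Δ, 1, 4.5 and 27 in sae2Δ ndt80Δ, and 3, 10 and 50 in sae2Δ. At 460670 the ratio was smaller, with 568 Crick reads against 30 in the control (1.98 times the control, 95% counting interval 1.37 to 2.96), and at 464571, in RDN58-2, there were 290 against 8 (3.79 times, interval 1.90 to 8.86). These bases held reads in replicates of all 4 genotypes, and the groups overlapped. The highest single counts at 458605 and 467742 were in sae2Δ tel1Δ (150 and 146). Counts per genotype here are raw reads, not scaled to depth or background, and do not rank the genotypes.

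**Figure D2:**
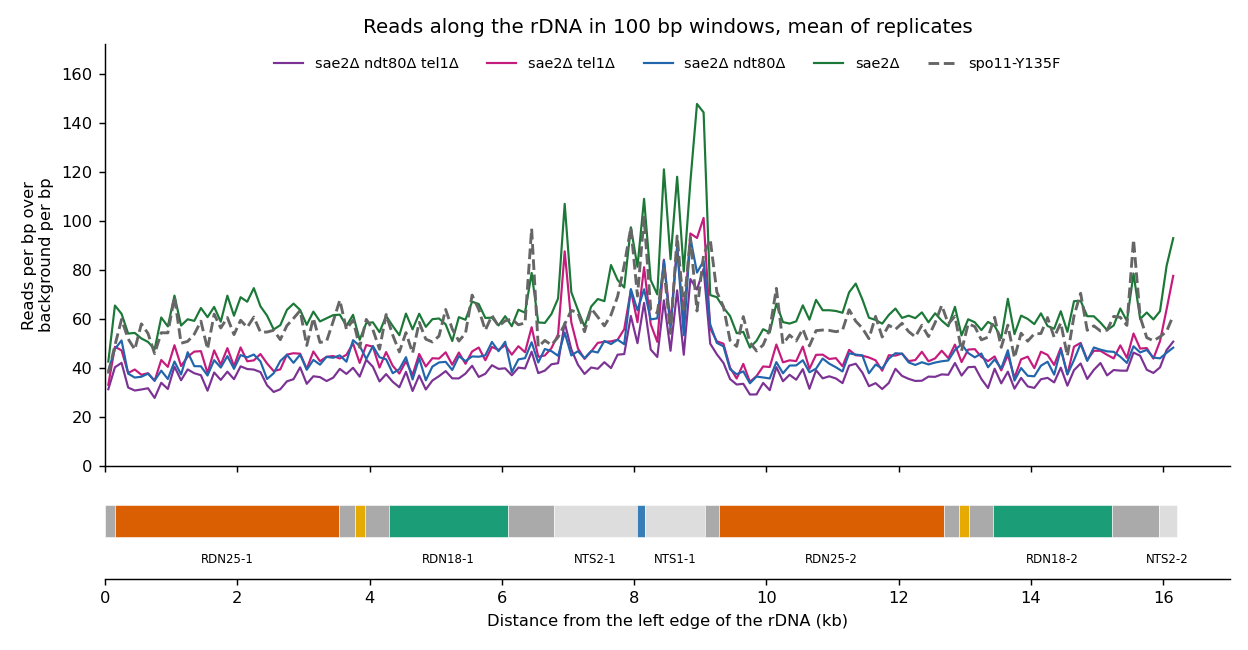
Reads per bp in 100 bp windows of the rDNA as multiples of background, against distance from its left end (kb), for the mean of each genotype with active Spo11 (solid lines) and the spo11-Y135F control (dashed), above a map of the annotated rRNA genes and spacers. The 3 genotypes that lacked Ndt80, Tel1 or both run below the control over most of the stretch, whereas sae2Δ runs slightly above it, most so in NTS1-1, where its mean was 108 times background, against 76.2 in the control.

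The sequence next to the reference units was not uniform, and parts of both flanks stood well above background. Only the first 1087 bp of the right flank came near the level of the rDNA. The last 300 bp of the left flank stood at 15.9 ± 6.68 times background in sae2Δ ndt80Δ tel1Δ, 17.2 ± 0.653 in sae2Δ tel1Δ, 17.9 ± 3.81 in sae2Δ ndt80Δ and 20.2 ± 2.90 in sae2Δ, against 19.1 in the control. The first 1087 bp of the right flank, up to the end of RDN5-2, stood at 36.8 ± 16.8, 42.7 ± 4.27, 43.1 ± 6.21 and 58.6 ± 13.8 in the same order, against 53.0 in the control. Beyond it lie repeats of ASP3, which encodes a cell-wall asparaginase, with 5S copies, in blocks of 6832 and 7304 bp. They held 34 and 62 reads in all 18 replicates together, against 1 and 0 in the control, so that no level can be read from them. The mapping-quality filter is not given in the sources used here, and its part in this gap was not tested. The stretch between the blocks, from YLR157W-D to YLR157W-E (475764 to 482044), holds a Ty1 retrotransposon and stood at 1.99 ± 1.70 times background in sae2Δ ndt80Δ tel1Δ, 0.772 ± 0.0834 in sae2Δ tel1Δ, 1.03 ± 0.476 in sae2Δ ndt80Δ and 0.862 ± 0.164 in sae2Δ, against 0.562 in the control. The next stretch, from RDN5-6 through the small open reading frames YLR162W and RRT15, stood at 6.17 ± 2.82, 7.11 ± 0.769, 8.13 ± 0.725 and 9.37 ± 1.71 in the same order, against 6.76 in the control. The unique parts of the flanks were therefore also taken alone, from 401640 to 451339 on the left and from 490595 to 517844 on the right.

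In these unique flanks the genotype means lay between 1.06 and 1.82 times background. The left flank stood at 1.07 ± 0.284 times background in sae2Δ ndt80Δ tel1Δ, 1.06 ± 0.0633 in sae2Δ tel1Δ, 1.28 ± 0.367 in sae2Δ ndt80Δ and 1.32 ± 0.0865 in sae2Δ, against 1.17 in the control. The right flank stood at 1.18 ± 0.350, 1.17 ± 0.0525, 1.74 ± 0.888 and 1.82 ± 0.275, against 1.25 in the control. Per replicate, the right flank was at 1.22, 1.204, 1.11 and 1.15 in sae2Δ tel1Δ, against 1.77, 2.27, 1.56, 1.66 and 1.86 in sae2Δ, and the left at 1.09, 1.13, 0.992 and 1.03, against 1.30, 1.47, 1.23, 1.297 and 1.299. The groups did not overlap in either flank, and sae2Δ tel1Δ was lower in both (exact permutation p = 0.00794, adjusted p = 0.0476 over the 12 comparisons). Both flanks as first defined gave the same 2 calls, with 1.16 ± 0.0661 in sae2Δ tel1Δ, against 1.43 ± 0.0784 in sae2Δ, on the left and 1.84 ± 0.137, against 2.61 ± 0.340, on the right (exact permutation adjusted p = 0.0476 each). Subtracting the background left 39.99 ± 59.0 RPM in the right flank of sae2Δ ndt80Δ tel1Δ, 196 ± 41.2 in sae2Δ tel1Δ, 305 ± 86.1 in sae2Δ ndt80Δ and 453 ± 82.6 in sae2Δ. On that scale the adjustment covered the flank comparisons alone, without the rDNA. The right flank fell in sae2Δ ndt80Δ tel1Δ relative to sae2Δ tel1Δ (exact permutation adjusted p = 0.0254) and to sae2Δ ndt80Δ (adjusted p = 0.0212), and in sae2Δ tel1Δ relative to sae2Δ (adjusted p = 0.0212). On the left, sae2Δ ndt80Δ at 162 ± 97.7 and sae2Δ tel1Δ at 116 ± 127 were lower than sae2Δ at 325 ± 55.9 (exact permutation adjusted p = 0.0212 and 0.0254), and sae2Δ ndt80Δ tel1Δ was at 0.929 ± 84.3. The means behind these subtractions differ in background as given above, and the part of background in them was not tested.

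**Figure D3:**
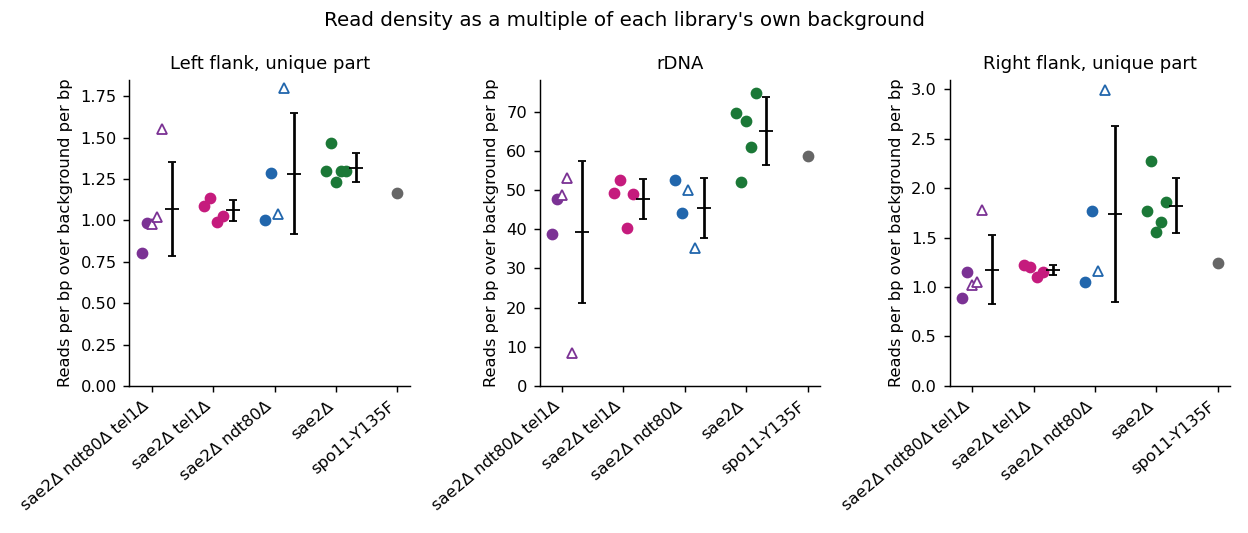
Read density in the unique left flank, the rDNA and the unique right flank as multiples of the background of each library (linear axes), for the 4 genotypes with active Spo11 and the spo11-Y135F control. Each point is a replicate (open triangles, time-course series) and black bars are the mean ± SD of a genotype, and the sae2Δ tel1Δ replicates lie below all sae2Δ replicates in both flanks (1.11 to 1.22, against 1.56 to 2.27, on the right).

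Hotspots were few. Outside the rDNA, 3419 hotspots were called in the union of the 4 genotypes with active Spo11, and 7 of them lay in the flanks, 2 on the left and 5 on the right. That is 4.0 and 10.0 per 100 kb, against 28.4 per 100 kb over the nuclear genome outside the rDNA. Of 232 tiles of 50 kb, the left flank had the fewest hotspots and the lowest summed strength (72.7 HpM), and the right flank ranked 3 on both counts (263), whereas the median tile had 14 hotspots and a strength of 3519. In the right flank, the repeat blocks of 6832 and 7304 bp held almost no reads, so that no hotspot could be called in them. The density and ranks of the right flank count this unreadable sequence in full. Hotspot strength, in hits per 1000000 (HpM), is the number of reads above the scaled control map as a share of that excess summed over all 3419 hotspots. By calls within each genotype, the flanks held 0 and 1 in sae2Δ ndt80Δ tel1Δ, 0 and 1 in sae2Δ tel1Δ, 2 and 2 in sae2Δ ndt80Δ, 2 and 5 in sae2Δ, and 0 and 1 in the control. The 1 called in the genotypes without Tel1 was YLR162W/RRT15, described below. The others entered the list through their level in genotypes with Tel1, 3 of them in sae2Δ alone, as did other hotspots among the 3419.

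On the left, a hotspot at 416847 to 416977 lay 34.7 kb from the rDNA in the divergent promoter region of TIS11, which encodes an mRNA-decay protein, and RKM5, which encodes a ribosomal protein methyltransferase. The other, at 447763 to 447897, lay 3.74 kb from the array between the tandem genes ACS2, for acetyl-CoA synthetase, and RNH203, for an RNase H2 subunit. On the right, the hotspot nearest the array (489917 to 490454, 22.1 kb away) was that of YLR162W/RRT15, which was also called in the control. The others lay 32.7 kb away between the tandem genes UPS2, for a mitochondrial phospholipid-transfer protein, and APS1, for a clathrin adaptor subunit (500501 to 500579), 42.4 and 43.0 kb away as a pair in the 821 bp between RFX1, for a repressor of DNA-damage response genes, and YLR177W (510278 to 510574 and 510826 to 510963), and 46.98 kb away in YLR179C/SAM1 (514823 to 515098), next to the gene for S-adenosylmethionine synthetase. Of the 7, 4 lay between divergent genes and 3 between tandem ones. All were weak: by mean strength over the 4 genotypes they ranked between 1901 and 3153 of the 3419.

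Apart from YLR162W/RRT15 and 1 replicate at TIS11/RKM5, the hotspots stood above the scaled control map in every replicate. At ACS2/RNH203 the replicates were 2.48 to 99.5 times background in sae2Δ ndt80Δ tel1Δ, 5.34 to 8.44 times in sae2Δ tel1Δ, 2.82 to 54.3 times in sae2Δ ndt80Δ and 14.8 to 40.4 times in sae2Δ, against 0.777 in the control. At TIS11/RKM5, 1 of 18 replicates, sae2Δ ndt80Δ tel1Δ replicate 3, fell below the scaled control map (0.966 times). At YLR162W/RRT15 the ratio to the scaled control map was 0.923, 1.22, 1.04, 1.23 and 0.148 in sae2Δ ndt80Δ tel1Δ, 1.09, 1.19, 0.901 and 1.09 in sae2Δ tel1Δ, 1.34, 1.13, 1.31 and 1.05 in sae2Δ ndt80Δ, and 1.65, 1.03, 1.41, 1.32 and 1.65 in sae2Δ. It was the only one of the 7 with replicates of more than 1 genotype at or below the control, and it is left out of the sums below.

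Of the 6 others, 5 were lower in strength and relative to nuclear reads where Tel1 was missing, both with and without Ndt80. None of the 6 had been called in a genotype without Tel1, so all were listed through genotypes where they are high. Their lower levels without Tel1 are therefore a description. The hotspot with the highest mean strength, YLR179C/SAM1, had strengths of 17.4, 16.4, 17.6, 80.9 and 27.1 in sae2Δ ndt80Δ tel1Δ and 42.6, 46.4, 42.9 and 43.4 in sae2Δ tel1Δ. It had 76.7, 80.7, 186.5 and 105.9 in sae2Δ ndt80Δ and 164.8, 113, 107, 117.5 and 116 in sae2Δ. Both comparisons by Tel1 were apart except for replicate 4 of sae2Δ ndt80Δ tel1Δ, which lay within the range of sae2Δ ndt80Δ. At the YLR177W side of RFX1/YLR177W the strengths were 7.63, 7.82, 6.47, 18.7 and 7.81 in sae2Δ ndt80Δ tel1Δ and 20.2, 21.5, 20.4 and 26.2 in sae2Δ tel1Δ, against 18.7, 39.4, 72.1 and 22.7 in sae2Δ ndt80Δ and 77.4, 58.2, 62.0, 45.9 and 82.2 in sae2Δ. Here sae2Δ tel1Δ and sae2Δ did not overlap, whereas replicate 4 of sae2Δ ndt80Δ tel1Δ reached the lowest sae2Δ ndt80Δ replicate. At UPS2/APS1 they were 6.90, 4.98, 5.24, 18.1 and 9.15 in sae2Δ ndt80Δ tel1Δ and 10.6, 14.3, 8.10 and 10.2 in sae2Δ tel1Δ, against 18.9, 18.1, 32.5 and 40.5 in sae2Δ ndt80Δ and 54.0, 24.6, 27.8, 32.3 and 26.4 in sae2Δ, with the same pattern of overlap. At ACS2/RNH203 they were 13.1, 15.3, 19.2, 26.1 and 31.4 in sae2Δ ndt80Δ tel1Δ and 34.7, 34.1, 38.5 and 39.3 in sae2Δ tel1Δ, against 45.8, 53.2, 52.4 and 46.0 in sae2Δ ndt80Δ and 68.3, 66.0, 59.8, 72.9 and 54.7 in sae2Δ. At this hotspot, the one closest to the array, neither comparison of strengths by Tel1 overlapped. As multiples of background, its intergenic stretch averaged 10.8 in sae2Δ ndt80Δ tel1Δ, against 9.57 in sae2Δ ndt80Δ, and 3.13 in sae2Δ tel1Δ, against 9.51 in sae2Δ. Without Ndt80, the direction at ACS2/RNH203 thus depended on the scale. The values behind these strengths rest on 23 to 804 reads a replicate.

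**Figure D4:**
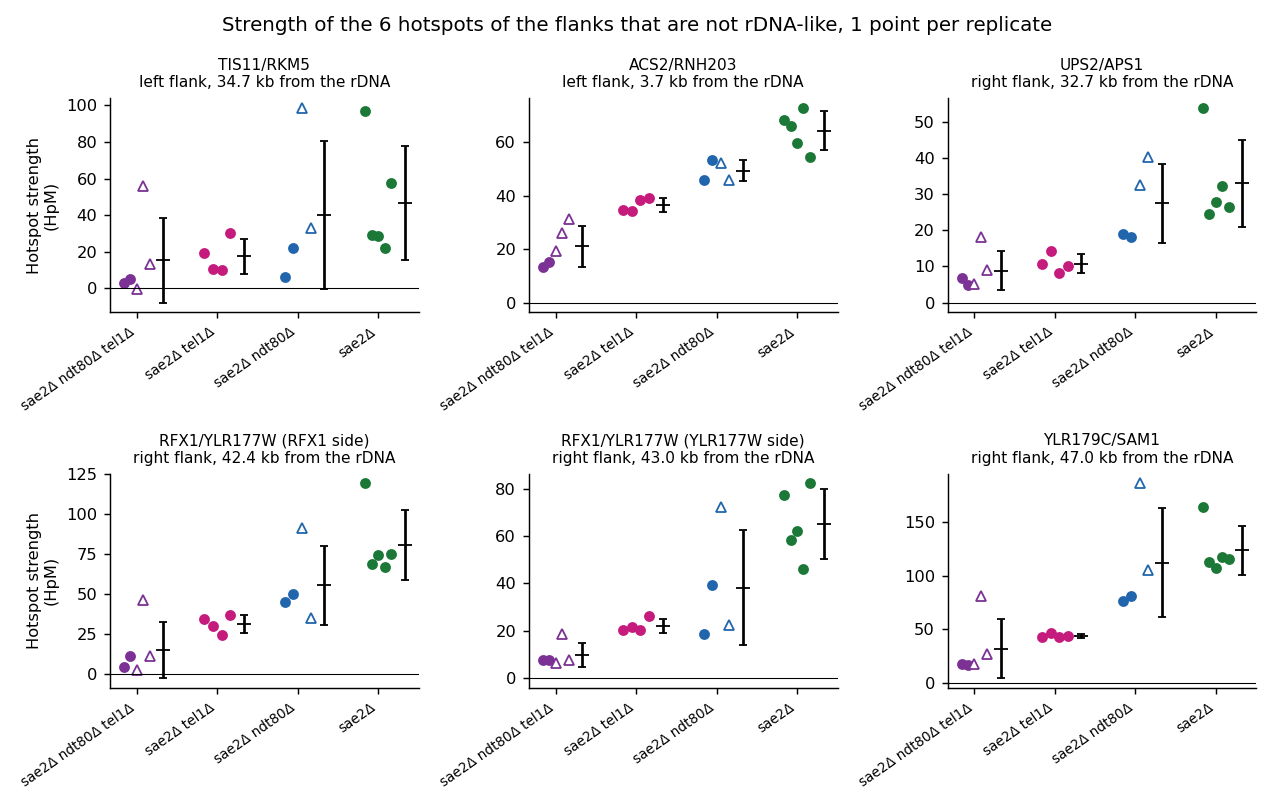
Strength (HpM, hits per 1000000 of hotspot signal) of the 6 flank hotspots other than YLR162W/RRT15 in each replicate of the 4 genotypes with active Spo11 (open triangles, time-course series), with the mean ± SD as black bars. At YLR179C/SAM1 the 4 sae2Δ tel1Δ replicates lie between 42.6 and 46.4, below all 5 sae2Δ replicates (107 to 164.8).

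In the fit across all 3419 hotspots (edgeR quasi-likelihood on reads, scaled to nuclear reads outside the rDNA), 5 of 7 flank hotspots fell in sae2Δ tel1Δ relative to sae2Δ, where 29.9% of all hotspots were called lower. They were the YLR177W side of RFX1/YLR177W (log2 ratio -1.55 ± 0.30 SE, edgeR adjusted p = 0.000401), YLR179C/SAM1 (-1.44 ± 0.31, adjusted p = 0.00121), UPS2/APS1 (-1.43 ± 0.34, adjusted p = 0.00236), the RFX1 side of RFX1/YLR177W (-1.26 ± 0.35, adjusted p = 0.00802) and ACS2/RNH203 (-1.01 ± 0.28, adjusted p = 0.00748). TIS11/RKM5 was at -1.23 ± 0.52 (edgeR adjusted p = 0.0702) and YLR162W/RRT15 at 0.30 ± 0.71 (adjusted p = 0.774), and neither passed. The 5 called had been listed through their level in genotypes with Tel1, whereas the 29.9% also covers hotspots called without Tel1. The count of 5 is therefore not a fair test of the flanks against all hotspots. The median log2 ratio was -1.12 for the 2 hotspots on the left and -1.43 for the 5 on the right, against -0.40 over all hotspots. That scaling counts background reads, and with the trimmed mean of M-values (TMM) the median of all hotspots was 0.01. Of all hotspots called, 88.2% were lower on the first scale and 51.1% with TMM. With TMM 4 of the 5 flank calls held, at -1.15, -1.03, -1.03 and -0.60, and the RFX1 side of RFX1/YLR177W did not pass (-0.85, edgeR adjusted p = 0.0927), nor did it in DESeq2 (-0.85, adjusted p = 0.109).

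The comparison of sae2Δ ndt80Δ tel1Δ with sae2Δ ndt80Δ, which shares no sample with the one above, also called 5 of 7 lower, and all 5 were those of the first comparison. The list of hotspots had taken in these 5 through cells with Tel1, so the match is not independent support. When these 2 genotypes were fitted alone, 3 of the 5 passed, and ACS2/RNH203 (edgeR adjusted p = 0.133) and the RFX1 side of RFX1/YLR177W (adjusted p = 0.0510) did not. Over all hotspots 13.2% were called lower. The log2 ratio was -1.55 ± 0.30 at YLR179C/SAM1 (edgeR adjusted p = 0.000969), -1.53 ± 0.30 at the YLR177W side of RFX1/YLR177W (adjusted p = 0.000828), -1.48 ± 0.35 at its RFX1 side (adjusted p = 0.00363), -1.41 ± 0.33 at UPS2/APS1 (adjusted p = 0.00366) and -0.98 ± 0.28 at ACS2/RNH203 (adjusted p = 0.0123). TIS11/RKM5 was at -1.24 ± 0.51 (edgeR adjusted p = 0.0792) and YLR162W/RRT15 at -0.82 ± 0.71 (adjusted p = 0.416). The median was -1.11 on the left and -1.48 on the right, against -0.01 over all hotspots. The interaction, which tests whether the effect of Tel1 differed between cells with and without Ndt80, passed for 0 of 7 in edgeR, where 0.205% of all hotspots were called, with 0 of 7 at an unadjusted p under 0.05 and 0 by DESeq2. The largest interaction among the 6 with signal above the control was -0.22 ± 0.48 (RFX1 side of RFX1/YLR177W, edgeR adjusted p = 0.842).

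Few flank hotspots were called for the loss of Ndt80. In sae2Δ ndt80Δ relative to sae2Δ, 0 of 7 were called lower in edgeR, as were 0.0% of all hotspots, although 3 of 7 had an unadjusted p under 0.05. DESeq2 called 0. The log2 ratio was -0.96 ± 0.29 at the YLR177W side of RFX1/YLR177W (edgeR adjusted p = 0.239), -0.72 ± 0.34 at its RFX1 side (adjusted p = 0.389), -0.61 ± 0.27 at ACS2/RNH203 (adjusted p = 0.374), and between -0.41 and -0.35 at TIS11/RKM5, YLR179C/SAM1 and UPS2/APS1. In sae2Δ ndt80Δ tel1Δ relative to sae2Δ tel1Δ, 1 of 7 fell, the YLR177W side of RFX1/YLR177W (-0.94 ± 0.30, edgeR adjusted p = 0.0315), where 2.98% of all hotspots were called lower and the median of all was 0.26. Leaving out any 1 of 8 of the 9 replicates ended this call, and without sae2Δ ndt80Δ tel1Δ replicate 4 there were 3 calls. Without the 5 time-course replicates, 6 of 7 were called lower in sae2Δ ndt80Δ relative to sae2Δ (23.6% of all hotspots) and 7 of 7 in sae2Δ ndt80Δ tel1Δ relative to sae2Δ tel1Δ (16.8% of all). Summed over the 6 hotspots, strength was 102 ± 82.8 in sae2Δ ndt80Δ tel1Δ, 162 ± 17.5 in sae2Δ tel1Δ, 323 ± 144 in sae2Δ ndt80Δ and 414 ± 96.1 in sae2Δ (SD, n = 5, 4, 4 and 5). The sum in sae2Δ ndt80Δ tel1Δ was 52.0, 60.6, 50.9 and 99.5 in replicates 1, 2, 3 and 5 and 245 in replicate 4.

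At the scale of single windows, in the fit of all 4 genotypes, most calls lay in the flank hotspots and none in the rDNA. The hotspots that held them had been listed through genotypes with Tel1. Lower calls without Tel1 were thus likely to fall inside them, and their position is a description. In sae2Δ tel1Δ relative to sae2Δ, 1.94% of all windows tested were called and 1.24% were called lower. In the flanks 7 of 816 windows were called, all lower and all inside hotspots, 1 on the left and 6 on the right, and in the rDNA 0 of 162 (0 at an unadjusted p under 0.05). The direction depended on the fit: with these 2 genotypes alone, 24 flank windows were called lower and 65 higher, with 12 rDNA windows higher, and without the time-course replicates of the other 2 genotypes 19 flank windows were lower and 11 higher. The strongest was 510845 to 510944, in the YLR177W side of RFX1/YLR177W, with 13.1 ± 1.05 RPM in sae2Δ tel1Δ, against 40.2 ± 8.87 in sae2Δ (log2 ratio -1.62, edgeR adjusted p = 0.00155). The next was 514945 to 515044 in YLR179C/SAM1, with 13.4 ± 1.58, against 39.9 ± 7.77 (-1.57, edgeR adjusted p = 0.00251). In sae2Δ ndt80Δ tel1Δ relative to sae2Δ ndt80Δ, 1.62% of all windows were called and 0.604% were called lower. In the flanks 14 of 816 were called, all lower, 12 of them in hotspots, and in the rDNA 0 of 162. The strongest were 515045 to 515144 and 514945 to 515044 in YLR179C/SAM1 (-1.92 and -1.73, edgeR adjusted p = 0.000308 and 0.00076). Outside hotspots, the calls were 493345 to 493444 between MAS1 and SHH4 (4.15 ± 2.55 RPM in sae2Δ ndt80Δ tel1Δ, against 11.2 ± 5.54 in sae2Δ ndt80Δ) and 448440 to 448539 between RNH203 and TAR1, 3.10 kb from the array (4.43 ± 1.87, against 10.3 ± 1.35). With TMM factors both counts of flank windows were 0.

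For the loss of Ndt80 no window of the flanks or the rDNA was called. In sae2Δ ndt80Δ relative to sae2Δ, 0.000864% of all windows were called, and in sae2Δ ndt80Δ tel1Δ relative to sae2Δ tel1Δ 0.644%. At an unadjusted p under 0.05 there were 8 and 26 flank windows and 0 and 2 rDNA windows. The interaction called 0.00259% of all windows and none here. These counts depended on the time-course replicates. Without these 5, sae2Δ ndt80Δ tel1Δ was left with replicates 1 and 2, both of low background (10.2 and 9.88 RPM per kb), and all 162 rDNA windows were called lower relative to sae2Δ tel1Δ and also relative to sae2Δ ndt80Δ, together with 434 and 418 of 817 flank windows. The part of background in those calls was not tested.

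In bins of 5 kb, none of the 19 flank bins tested and not the rDNA taken as 1 bin was called in any comparison in the fit of all 4 genotypes. With sae2Δ tel1Δ and sae2Δ fitted alone, 1 flank bin was lower and 12 were higher. Over all bins the share called was 0.0% for sae2Δ ndt80Δ relative to sae2Δ, 11.2% for sae2Δ ndt80Δ tel1Δ relative to sae2Δ tel1Δ, 17.5% for sae2Δ tel1Δ relative to sae2Δ, 21.3% for sae2Δ ndt80Δ tel1Δ relative to sae2Δ ndt80Δ and 0.414% for the interaction. At an unadjusted p under 0.05 the counts were 0, 0, 0, 2 and 0 flank bins. By distance, the bins with a mean of at least 1.5 times background in sae2Δ were those within 5 kb on either side, those 30 to 35 kb away on both sides and those 20 to 25 and 40 to 50 kb away on the right. In the bin 10 to 15 kb to the left the 5 sae2Δ replicates lay between 1.00 and 1.04 times background, and at 20 to 25 kb between 0.855 and 1.02, against 1.18 and 1.14 in the control. In the bin 45 to 50 kb to the right, which holds YLR179C/SAM1, means were 1.84 ± 1.31 in sae2Δ ndt80Δ tel1Δ, 1.36 ± 0.0717 in sae2Δ tel1Δ, 2.88 ± 2.37 in sae2Δ ndt80Δ and 2.79 ± 0.642 in sae2Δ, against 1.37 in the control.

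**Figure D5:**
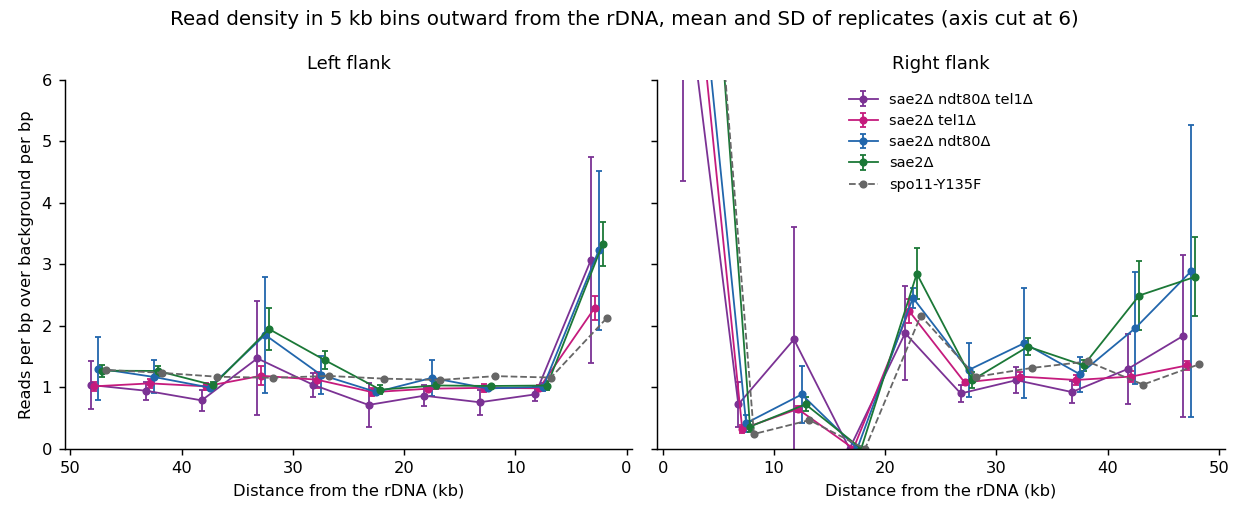
Reads per bp in 5 kb bins as multiples of background against distance from the rDNA (kb), in the left and right flanks, as the mean ± SD of the 4 genotypes with active Spo11 and the value of the control, with points shifted sideways by genotype and an axis that stops at 6, so that the first right-hand bin (8.00 to 12.7 times background) is off scale. Most bins of the left flank lie near 1, and the means of sae2Δ and sae2Δ ndt80Δ lie above that of sae2Δ tel1Δ in the bins that hold hotspots. Among these bins, the mean of sae2Δ ndt80Δ tel1Δ also lies above that of sae2Δ tel1Δ at 0 to 5 and 30 to 35 kb on the left and 40 to 50 kb on the right. At 20 to 25 and 30 to 35 kb on the right it lies below.

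What signal there was in the unique flanks lay upstream of genes. The 12 intergenic stretches between divergent genes stood at 2.73 ± 2.83 times background in sae2Δ ndt80Δ tel1Δ, 1.66 ± 0.206 in sae2Δ tel1Δ, 4.38 ± 4.00 in sae2Δ ndt80Δ and 4.57 ± 1.26 in sae2Δ, against 1.23 in the control. Every sae2Δ replicate (3.26 to 6.57) lay above every sae2Δ tel1Δ replicate (1.43 to 1.89), which in turn lay above the control. The 16 stretches between tandem genes stood at 2.36 ± 2.40, 1.41 ± 0.118, 2.77 ± 2.33 and 2.60 ± 0.647 in the same order, against 1.41 in the control. The 11 between convergent genes, which hold no promoter, stood at 0.889 ± 0.157, 1.04 ± 0.117, 1.08 ± 0.1929 and 1.06 ± 0.0994, against 1.37, and the 42 open reading frames at 0.796 ± 0.230, 1.00 ± 0.0474, 1.03 ± 0.0600 and 1.11 ± 0.02005, against 1.16. Of the 39 intergenic stretches, the highest means in sae2Δ were at YLR179C/SAM1 (12.5 times background), RFX1/YLR177W (10.1), ACS2/RNH203 (9.51) and TIS11/RKM5 (8.47), against 1.25, 1.10, 1.02 and 1.41 in the control. Among stretches with no called hotspot, TAG1/IDP2, between tandem genes, stood at 1.58 in sae2Δ ndt80Δ tel1Δ, 1.602 in sae2Δ tel1Δ, 2.93 in sae2Δ ndt80Δ and 3.79 in sae2Δ, against 1.31 in the control. The largest intergenic stretch of the right flank, between SEC10 and RPS31 (902 bp, divergent), stood at 0.729, 1.03, 1.13 and 1.05 in the same order, against 1.205 in the control.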

How the data were processed

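The data were CC-seq maps of 21 libraries. The authors aligned paired reads to a build derived from R64 with Bowtie2 (named in the submitters' processing notes) and deposited, for each base and strand, the raw count of 5′ ends, with no normalization. The mapping-quality filter and the handling of duplicate reads are not given in the sources used here, and PCR reads are not independent molecules. The control table lists every chromosome in a pair of blocks, of which the second adds the mates of the first, and only the first (3622725 reads) was used. Libraries 1A and 1B of sae2Δ tel1Δ, and 7B and 7C of sae2Δ, were summed as repeat libraries of 1 sample (chi-square per degree of freedom 1.17 and 1.97, against 2.95 to 160 for other pairs of 1 genotype), leaving 18 replicates and 1 control. The stretch, its hotspots and the gene lists were chosen with earlier results of these data known.

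Counts were divided by nuclear reads outside the rDNA (reads per 1000000, RPM), or by the density in 47 open reading frames over 5.5 kb. Hotspots were called in each genotype from a 201 bp Hann-smoothed signal at 0.193 hits per 1000000 (HpM) and a base (at least 25 bp and 25 reads, gaps under 200 bp merged), and the union was taken. Hotspots, 100 bp windows and 5 kb bins were tested on counts with the quasi-likelihood test of edgeR 4.0.16 in R 4.3.3, with all replicates of the 4 genotypes in 1 fit and nuclear reads as library size. The Benjamini-Hochberg adjustment covered every feature of a table, with calls at 0.05, and the fit was tested on simulated data. Stretch levels were tested by exact two-sided permutation over replicates (checked against scipy 1.17.1). They were adjusted over 12 comparisons, or over those of the flanks alone where background was subtracted. Named were the 5 strongest hotspots of each flank, the top called windows, each annotated rDNA part and the 3 windows of each unit highest over the control. Alternatives were TMM factors, DESeq2 1.42.0, the 2 genotypes alone, other windows, hotspot cut-offs, backgrounds and single strands, and each replicate left out in turn. The unique flanks, leaving out the time-course series for them and the summed control blocks were added after seeing the data.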

Additional observations from a re-analysis of the deposited data

Results flagged for a closer look

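Within genotypes of 4 or 5 replicates, 8 of 56 tests of a level or of a flank hotspot's strength found a replicate far from the others, where chance flags about 1 in 20 groups. All 8 were hotspot strengths. In 5 of the 8 it was sae2Δ ndt80Δ tel1Δ replicate 4, a time-course library with a background of 45.8 RPM per kb, whose hotspot reads above the scaled control map came to 40.3% of its nuclear reads. It stood high at TIS11/RKM5 (a strength of 55.7 HpM), YLR162W/RRT15 (212), the RFX1 side of RFX1/YLR177W (45.9), its YLR177W side (18.7) and YLR179C/SAM1 (80.9). In the other 3 it was sae2Δ replicate 1, which stood high at UPS2/APS1 (54.0), the RFX1 side of RFX1/YLR177W (119) and YLR179C/SAM1 (165). The part of background in these values was not tested.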

How the results depend on the processing

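Of the values of the main comparisons under all alternatives, 579 of 690 kept their direction and their side of the threshold or their size, as did 380 of 420 for single hotspots. Levels in RPM reversed as multiples of background in 7 of 12 comparisons: for sae2Δ ndt80Δ minus sae2Δ (left -0.0512, rDNA -19.6, right -0.388), for sae2Δ tel1Δ minus sae2Δ (left -0.276, rDNA -17.3, right -0.768) and, at 0.0045, for sae2Δ ndt80Δ tel1Δ minus sae2Δ tel1Δ on the right. With background subtracted, the left flank of sae2Δ tel1Δ minus sae2Δ was -120.8 RPM, and in the unique flanks sae2Δ ndt80Δ minus sae2Δ passed on the left (-163), sae2Δ ndt80Δ tel1Δ minus sae2Δ ndt80Δ passed on the right (-265) and sae2Δ ndt80Δ tel1Δ minus sae2Δ tel1Δ reversed (left -115.5, right -156). Without the time-course series the last was -0.167 and -0.150 times background. In RPM, the rDNA over the control was 0.212 in sae2Δ ndt80Δ tel1Δ, 0.318 in sae2Δ tel1Δ, 0.330 in sae2Δ ndt80Δ and 0.265 in sae2Δ. Without the time-course series the counts for sae2Δ ndt80Δ vs sae2Δ, sae2Δ ndt80Δ tel1Δ vs sae2Δ tel1Δ, sae2Δ tel1Δ vs sae2Δ, sae2Δ ndt80Δ tel1Δ vs sae2Δ ndt80Δ and the interaction were 13, 437, 30, 418 and 628 flank windows, 1, 17, 0, 17 and 17 bins and 7, 7, 6, 7 and 1 hotspots, with 2 replicates left in each ndt80Δ genotype. The cause was not tested. In the order sae2Δ ndt80Δ tel1Δ vs sae2Δ tel1Δ, sae2Δ tel1Δ vs sae2Δ and sae2Δ ndt80Δ tel1Δ vs sae2Δ ndt80Δ, flank windows numbered 2, 18 and 22 in DESeq2 and 0, 0 and 0 with TMM factors, and hotspots 2, 4 and 5 in both. DESeq2 called 1 bin in the first and the last, and TMM factors 1 bin in the last. With the 2 genotypes alone there were 89 windows (24 lower, 65 higher) and 13 bins (1 lower, 12 higher) for sae2Δ tel1Δ vs sae2Δ, with 12 rDNA windows higher, and 2 windows and 3 hotspots for sae2Δ ndt80Δ tel1Δ vs sae2Δ ndt80Δ, where windows of 200 bp gave 8. At the lower hotspot cut-off the left flank had 4 hotspots. The rDNA windows over the control in sae2Δ ndt80Δ tel1Δ, sae2Δ tel1Δ, sae2Δ ndt80Δ and sae2Δ were 1, 3, 1 and 7 on the Crick strand and 0, 0, 0 and 3 on the Watson strand, and 0, 0, 0 and 1 were over 2 times it. Scaling by TMM moved the median log2 ratio of all hotspots to 0.01 from -0.40 for sae2Δ tel1Δ vs sae2Δ and to 0.04 from 0.26 for sae2Δ ndt80Δ tel1Δ vs sae2Δ tel1Δ, where 43.1% of calls were lower, against 17.7%.

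Whether replicate numbers pair the samples was not settled, and the main fits used no pairing. Of 14 same-numbered pairs, 8 deviated together (r over 0.1), with r between -0.28 and 0.77. With the replicate block, 110 of 162 rDNA windows had an unadjusted edgeR p under 0.05 for sae2Δ ndt80Δ tel1Δ vs sae2Δ tel1Δ, against 2 in the main fit, and 0 passed adjustment in either. With the replicate block, 1 bin was called for sae2Δ ndt80Δ tel1Δ vs sae2Δ ndt80Δ, 0 hotspots for sae2Δ ndt80Δ tel1Δ vs sae2Δ tel1Δ, and the log2 ratio at YLR162W/RRT15 was -0.0034 in sae2Δ ndt80Δ vs sae2Δ and -0.16 in sae2Δ tel1Δ vs sae2Δ.

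Leaving out 1 replicate at a time, rDNA RPM in sae2Δ ndt80Δ minus sae2Δ ranged from -2460 to 11124 and the right flank from -50.0 to 1301, both lowest without sae2Δ ndt80Δ replicate 1. As multiples of background, sae2Δ ndt80Δ minus sae2Δ ranged from -0.210 to 0.0554 (left) and -0.497 to 0.147 (right), highest without the same replicate, sae2Δ ndt80Δ tel1Δ minus sae2Δ tel1Δ from -0.114 to 0.0740 (left) and -0.144 to 0.0789 (right), lowest without sae2Δ ndt80Δ tel1Δ replicate 5, and the rDNA in sae2Δ ndt80Δ tel1Δ minus sae2Δ ndt80Δ from -9.54 to 1.65, highest without that replicate. For sae2Δ tel1Δ minus sae2Δ the ranges were -0.283 to -0.222 (left) and -0.720 to -0.541 (right), with no adjusted p under 0.05, since fewer replicates raise the smallest attainable p. Windows numbered 3 to 6 for sae2Δ tel1Δ vs sae2Δ, 5 to 29 for sae2Δ ndt80Δ tel1Δ vs sae2Δ ndt80Δ and 0 to 11 for sae2Δ ndt80Δ tel1Δ vs sae2Δ tel1Δ, bins 0 to 8 and 0 to 7 for the last 2 and 0 to 9 for the interaction, and hotspots 0 to 3 for sae2Δ ndt80Δ tel1Δ vs sae2Δ tel1Δ. Each highest count of the ndt80Δ comparisons came without sae2Δ ndt80Δ tel1Δ replicate 4. Hotspot calls rested on as few as 22 reads a replicate, and the control on 1 library.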
